A study of Mus musculus with 40 samples.

Results

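The genes described here are 9 genes of iron handling, found by symbol among the 54307 genes of the deposited table, and all 9 passed the filter on low values in both tissues. They were chosen by name, as *Hmox1*, *Fth1*, *Ftl1*, *Slc40a1*, *Cp*, *Heph*, *Slc11a1*, *Trf* and *Tfrc*. RNA of the choroid and of the retina was sequenced from 20 mice of both sexes on a C57BL/6J background, which gave 40 libraries. Every mouse carried floxed *Tgfbr2* alleles (Tgfbr2 fl/fl), received tamoxifen eye drops at 6 to 7 weeks of age, and was given 6 laser burns per eye, with tissue taken 3 days after the laser. In Tgfbr2ΔEC mice (labelled CrePos) a tamoxifen-inducible Cre recombinase under the *Cdh5* promoter deletes *Tgfbr2* in endothelial cells, and controls (labelled CreNeg) were littermates without Cre. PLX5622 (PLX), an inhibitor of the CSF1 receptor, was fed to a subset of each genotype from the first tamoxifen drop onward to deplete mononuclear phagocytes, so that the groups control – PLX, Tgfbr2ΔEC – PLX, control + PLX and Tgfbr2ΔEC + PLX held 5 mice each. Laser burns and tamoxifen were thus common to all groups, the controls included. Mice carry the numbers 1 to 20 of their labels, and both tissues of a mouse share its number.

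Cells take up iron as transferrin-bound iron through the transferrin receptor, or recover it from engulfed red cells, whose haem is opened by haem oxygenase inside macrophages. Iron that is not used is stored in ferritin or leaves the cell through ferroportin, and a copper ferroxidase then oxidizes it so that transferrin can bind it. In the eye, the retinal pigment epithelium lies between the blood vessels of the choroid and the photoreceptors. Ferritin, ferroportin, transferrin and the ferroxidases are all known to be made in these tissues.

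Several of these mRNAs carry iron-responsive elements (IREs), short hairpins that iron regulatory proteins bind when iron is low. Binding in a 5′ UTR blocks translation without necessarily changing the amount of mRNA, whereas binding in a 3′ UTR protects the mRNA from decay, which is why a normalized count reads the regulation of the members in different ways. A search of GRCm39 exons for the letters CNNNNNCAGTGN followed by 5 bases that pair with the 5 after the C, G-T pairs included, found 7 matches in 4 of the 9 members. They are shown with the CAGTGN loop in capitals because they group the members by the place of the element.
Slc40a1 5′ UTR, chr1:45964626-45964652, minus strand: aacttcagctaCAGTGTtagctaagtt
Fth1 5′ UTR, chr19:9960097-9960123, plus strand: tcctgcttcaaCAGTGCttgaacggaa
Ftl1 5′ UTR, chr7:45109204-45109230, minus strand: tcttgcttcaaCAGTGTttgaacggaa
Tfrc 3′ UTR, chr16:32450038-32450064, plus strand: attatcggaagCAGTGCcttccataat
Tfrc 3′ UTR, chr16:32450417-32450443, plus strand: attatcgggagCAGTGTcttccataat
Tfrc 3′ UTR, chr16:32450482-32450508, plus strand: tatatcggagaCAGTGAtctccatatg
Tfrc 3′ UTR, chr16:32450529-32450555, plus strand: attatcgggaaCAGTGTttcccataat
A match of this kind lay in a 5′ UTR of 0.216% and in a 3′ UTR of 1.09% of 22263 protein-coding genes. The match is a description of the letters on the transcribed strand, and the other 5 members held none in their exons.

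The deposited values are normalized counts, which summed to 24718500 to 25956200 per choroid and to 22256900 to 24507300 per retina, and 1 read was worth 0.901 to 1.19 and 0.744 to 1.12 of them, respectively. The marker genes of the phagocytes PLX is given to deplete were lower with PLX in 14 of 15 cases in each tissue, with *Tmem119* in choroid and *Lyve1* in retina as the exceptions. The score of these markers, a mean of log2(normalized count + 1), ranged from 10.73 to 10.95 without and from 8.03 to 8.87 with PLX in choroid, and from 6.19 to 7.87 and 2.04 to 3.33 in retina. In whole tissue, *Tgfbr2* itself did not separate the genotypes (choroid without PLX 9836 to 10849 normalized counts in control and 8729 to 11304 in Tgfbr2ΔEC mice), so its level does not check the genotype labels. The choroids carried *Rpe65*, a gene of the retinal pigment epithelium, at 14927 to 43886 normalized counts against 131 to 1168 in the retinae. The score of neural retina markers ranged from 15.8 to 16.4 in the retinae and from 7.25 to 12.9 in the choroids, so these held a varying amount of neural retina. In such bulk samples, fewer cells of a type and less RNA per cell cannot be told apart.

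PLX lowered 4 of the 9 iron handling genes in choroid and raised none. The iron exporter *Slc40a1* fell the most, followed by the phagosomal transporter *Slc11a1* and the haem oxygenase *Hmox1*, and the light ferritin chain *Ftl1* fell less. All of them were called by limma with Benjamini-Hochberg adjustment over 23619 genes, of which 5.06% were called lower and 2.07% higher (7.13% in either direction). *Tfrc*, *Fth1*, *Cp*, *Heph* and *Trf* were not called.

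*Hmox1* (ENSMUSG00000005413, chr8:75820241-75827217) encodes haem oxygenase 1, the inducible enzyme that frees iron from haem. Its normalized counts in control – PLX choroids were 2334, 2724, 2608, 2646 and 4147. They were 3231, 2168, 4681, 2146 and 2723 in Tgfbr2ΔEC – PLX choroids. The control + PLX choroids had 1197, 1248, 1771, 1074 and 982, and the Tgfbr2ΔEC + PLX choroids 1714, 1216, 1038, 974 and 1474. The groups did not overlap: the highest choroid with PLX stayed below the lowest without, in both genotypes together. The mean was 2941 ± 847 (SD, n = 10) without and 1269 ± 291 (n = 10) with PLX, a log2 difference of -1.20 (SE 0.15, adjusted p = 9.38e-06, limma), or 2.29-fold lower. The exact permutation test within genotypes gave p = 3.15e-05, the smallest it allows. The difference was -1.20 in control mice, where 3.75% of genes were called, and -1.19 in Tgfbr2ΔEC mice, where 4.06% were, and it was called in both.

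*Slc40a1* (ENSMUSG00000025993, chr1:45947211-45965683) encodes ferroportin, the only known iron exporter of mammalian cells, and its message holds the 5′ UTR element shown above. Its normalized counts were 856, 757, 739.5, 921 and 796 in control – PLX choroids. In Tgfbr2ΔEC – PLX choroids they were 891, 1002, 1004, 891 and 838. With PLX they were 335, 227, 234, 274 and 225 in control and 235, 269, 258, 316 and 294 in Tgfbr2ΔEC choroids. No library with PLX came near the lowest without it. The mean fell from 869.5 ± 91.5 (SD, n = 10) to 267 ± 38.6 (n = 10), a log2 difference of -1.71 (SE 0.08, adjusted p = 1.3e-11, limma; exact permutation p = 3.15e-05), or 3.27-fold. It was -1.66 in control and -1.75 in Tgfbr2ΔEC mice, called in both.

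*Slc11a1* (ENSMUSG00000026177, chr1:74414303-74425448) encodes NRAMP1, which moves iron and other divalent metals out of the phagosomes of macrophages and neutrophils. In choroids without PLX its normalized counts were 1437, 1434, 1347, 1410.2 and 1693 in control and 1675, 1662, 1669.5, 1746 and 1061 in Tgfbr2ΔEC mice. With PLX they were 688, 751, 751, 539 and 509.8 in control and 580.2, 534, 717, 412 and 693 in Tgfbr2ΔEC mice. The diets did not overlap here either. The log2 difference was -1.30 (SE 0.11, adjusted p = 3.66e-08, limma; exact permutation p = 3.15e-05), from a mean of 1513 ± 214 (SD, n = 10) to 617 ± 118 (n = 10). Of all 23619 genes tested, 1.75% were lower with PLX in every library without overlap, as were these 3 members.

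*Ftl1* (ENSMUSG00000050708, chr7:45107367-45109308) and *Fth1* (ENSMUSG00000024661, chr19:9957911-9962462) encode the light and heavy chains of ferritin, the shell that stores iron, and the heavy chain carries its ferroxidase. *Ftl1* stood at 59292, 65667, 50330.2, 53931 and 62188 normalized counts in control – PLX choroids. It stood at 63391, 58988, 66801, 54617 and 56864 in Tgfbr2ΔEC – PLX choroids. With PLX it was at 45435, 69668, 48045, 42201 and 35351 in control and at 43782, 44862, 38918, 39558 and 46198 in Tgfbr2ΔEC choroids. Mouse 12, the highest of all, made the control groups overlap, while the Tgfbr2ΔEC groups did not overlap, as for 5.16% of genes lower in every Tgfbr2ΔEC choroid with PLX. The neural retina score of the Tgfbr2ΔEC choroids did not overlap either, at 11.3 to 12.9 without and 8.78 to 10.2 with PLX. With this score as a covariate, their difference in *Ftl1* was -0.60 and not called (adjusted p = 0.0583, limma). Those in *Hmox1*, *Slc40a1* and *Slc11a1* stayed called. The log2 difference of *Ftl1* over both genotypes was -0.40 (95% confidence interval -0.60 to -0.20, adjusted p = 0.00929, limma), or 1.32-fold lower. Within genotypes it was -0.49 in Tgfbr2ΔEC mice (adjusted p = 0.0384, limma), a call kept in 10 of the 20 fits without 1 mouse and in 7 of 12 alternatives. In control mice it was -0.31 and not called (adjusted p = 0.293, limma), but -0.45 and called without mouse 12 (adjusted p = 0.0105, limma). The genotypes were not shown to differ in it (interaction -0.19, 95% confidence interval -0.58 to 0.21, adjusted p = 0.99, limma).

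*Fth1* in choroid ranged from 47231 to 67106 normalized counts (median 57568) without PLX and from 41318 to 86555 (median 46858) with PLX. The ranges overlapped, with mouse 12 again the highest. The log2 difference of -0.18 (95% confidence interval -0.41 to 0.04) was not called (adjusted p = 0.38, limma). Without mouse 12 it was -0.27 and called (adjusted p = 0.0214, limma), and that of *Ftl1* was -0.47 (adjusted p = 8.61e-05, limma). In mouse 12 the score of 80 ribosomal protein genes was also the highest of the choroids, at 12.7 against 11.9 to 12.3 in the others. With this score as a covariate, chosen after seeing the data, *Fth1* differed by -0.14 and was not called (adjusted p = 0.31, limma), and *Ftl1* differed by -0.36 and was called (adjusted p = 0.000713, limma).

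The transferrin axis and the ferroxidases showed no called change in choroid. *Trf* (ENSMUSG00000032554, chr9:103081200-103107814), transferrin itself, spread from 68589 to 245451 normalized counts without PLX and from 67178 to 240375 with PLX. Mice 1 and 5 without and mouse 13 with PLX stood far above the others, so that the log2 difference of -0.05 had an interval of -0.51 to 0.41. *Tfrc* (ENSMUSG00000022797, chr16:32427556-32451612), the transferrin receptor whose 3′ UTR holds the 4 elements shown above, ranged from 1068 to 1610.5 without and from 696 to 2063 with PLX. Its difference was -0.20 (-0.50 to 0.09, adjusted p = 0.477, limma). *Cp* (ENSMUSG00000003617, chr3:20011090-20063930), the ferroxidase ceruloplasmin, differed by 0.09 (-0.06 to 0.25), and its membrane-bound relative *Heph* (ENSMUSG00000031209, chrX:95498965-95621010) by 0.16 (-0.01 to 0.33). These intervals leave out a change of the size of that in *Hmox1*, *Slc40a1* or *Slc11a1* for all 4 genes.

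**Figure D1:**
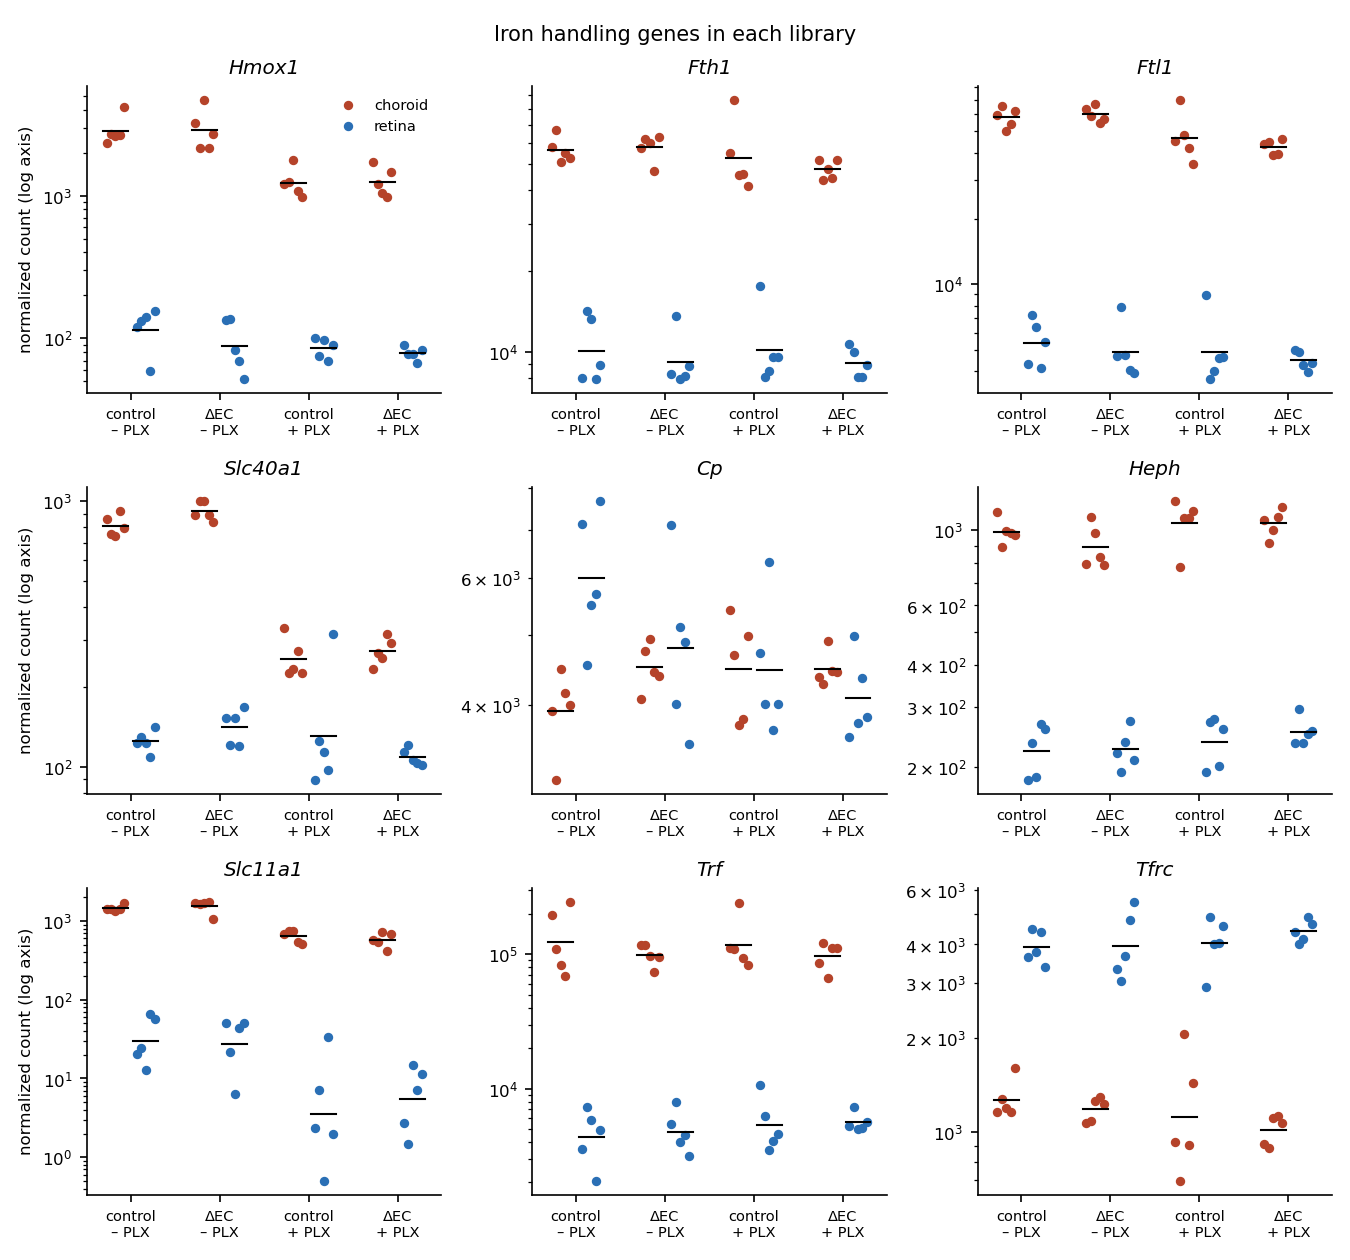
Normalized count (log axis) of each iron handling gene in every library, for the 4 groups of 5 mice (ΔEC stands for Tgfbr2ΔEC). Each point is 1 library, choroid in red and retina in blue, and black bars are geometric means. *Hmox1*, *Slc40a1* and *Slc11a1* of choroid lie lower in both groups with PLX, without overlap, while *Tfrc* is the member that lies higher in retina than in choroid in every library.

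In retina PLX lowered 1 of the 9 genes, *Slc11a1*, against 1.08% of 23243 genes called lower (1.09% in either direction). Its normalized counts were 20.6, 24.2, 12.7, 66.2 and 56.1 in control – PLX and 51.3, 21.7, 6.27, 43.5 and 50.6 in Tgfbr2ΔEC – PLX retinae. They were 2.38, 7.19, 0.498, 33.5 and 1.95 in control + PLX and 2.68, 1.49, 14.7, 7.23 and 11.6 in Tgfbr2ΔEC + PLX retinae. The diets overlapped, with mice 14 and 18 the highest with PLX and mice 8 and 3 the lowest without, and 5 of the 10 libraries with PLX were at or under the floor of 3 reads. The log2 difference was -2.31 (SE 0.53, adjusted p = 0.0312, limma; exact permutation p = 0.00142), but within control and Tgfbr2ΔEC mice none of the 9 members was called (adjusted p = 0.242 and 0.801 for *Slc11a1*, limma), against 0.736% and 0.516% of genes, with 1335 and 919 genes at an unadjusted p under 0.05. The call was kept in 9 of the 20 fits that each left out 1 mouse, and was lost without mouse 4, 5, 6, 9, 10, 11, 13, 15, 16, 17 or 19 (adjusted p 0.0516 to 0.0765, limma). Over 11 alternatives the log2 difference ranged from -2.47 to -1.66.

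*Slc40a1* was not called in retina. It was at 124, 129.9, 124, 109 and 142 normalized counts in control – PLX and at 154, 121, 153, 121 and 168 in Tgfbr2ΔEC – PLX retinae. With PLX it was at 89.4, 126, 114, 97.5 and 316 in control and at 114, 121, 106, 103 and 102 in Tgfbr2ΔEC retinae. The ranges overlapped, and the retina of mouse 15 stood alone at more than any other. The log2 difference was -0.15 (95% confidence interval -0.51 to 0.20, adjusted p = 1, limma), and without mouse 15 it was -0.31 (adjusted p = 0.43, limma). Within genotypes it was 0.07 in control mice (exact permutation p = 0.944) and -0.38 in Tgfbr2ΔEC mice (exact permutation p = 0.0159, unadjusted). Neither was called by limma.

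*Hmox1* in retina was at 120.0, 132, 140.4, 59.4 and 155 normalized counts in control – PLX and at 134, 138, 82.8, 70.0 and 51.9 in Tgfbr2ΔEC – PLX mice. With PLX it was at 99.9, 75.7, 97.5, 70.0 and 90.3 in control and at 89.6, 77.6, 77.9, 67.2 and 82.7 in Tgfbr2ΔEC mice. Retinae without PLX spread more widely and included both the highest and the lowest values. The difference of -0.30 (-0.69 to 0.09) was not called. *Cp* of retina had a log2 difference of -0.33 (95% confidence interval -0.59 to -0.06, adjusted p = 0.524, limma; exact permutation p = 0.0268) and did not pass the adjustment either. *Tfrc*, *Fth1*, *Ftl1*, *Heph* and *Trf* differed by -0.13 to 0.27, none called.

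A direct test of whether PLX acted differently in choroid and retina called 1 member, *Slc40a1*, against 1.37% of 24317 genes (0.822% lower in choroid relative to retina). Its PLX effect was 1.55 log2 units (SE 0.19) lower in choroid, with an adjusted p of 7.5e-07 by limma, and 1.37 lower without mouse 15. For *Hmox1* the difference of effects was -0.90 (95% confidence interval -1.39 to -0.40), just outside the threshold (adjusted p = 0.0542, limma). With the mouse as a replicate block, so that each choroid was set against the retina of the same animal, it was called (adjusted p = 0.0422, limma), as was *Slc40a1* (adjusted p = 0.000263, limma). It was also called without mouse 6, 7 or 13. *Slc11a1*, the member that fell in both tissues, had a difference of 1.01 (-0.14 to 2.15, adjusted p = 0.581, limma), and of 0.363 to 1.17 over 8 alternatives. Its retinal effect is thus not shown to be the larger.

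**Figure D2:**
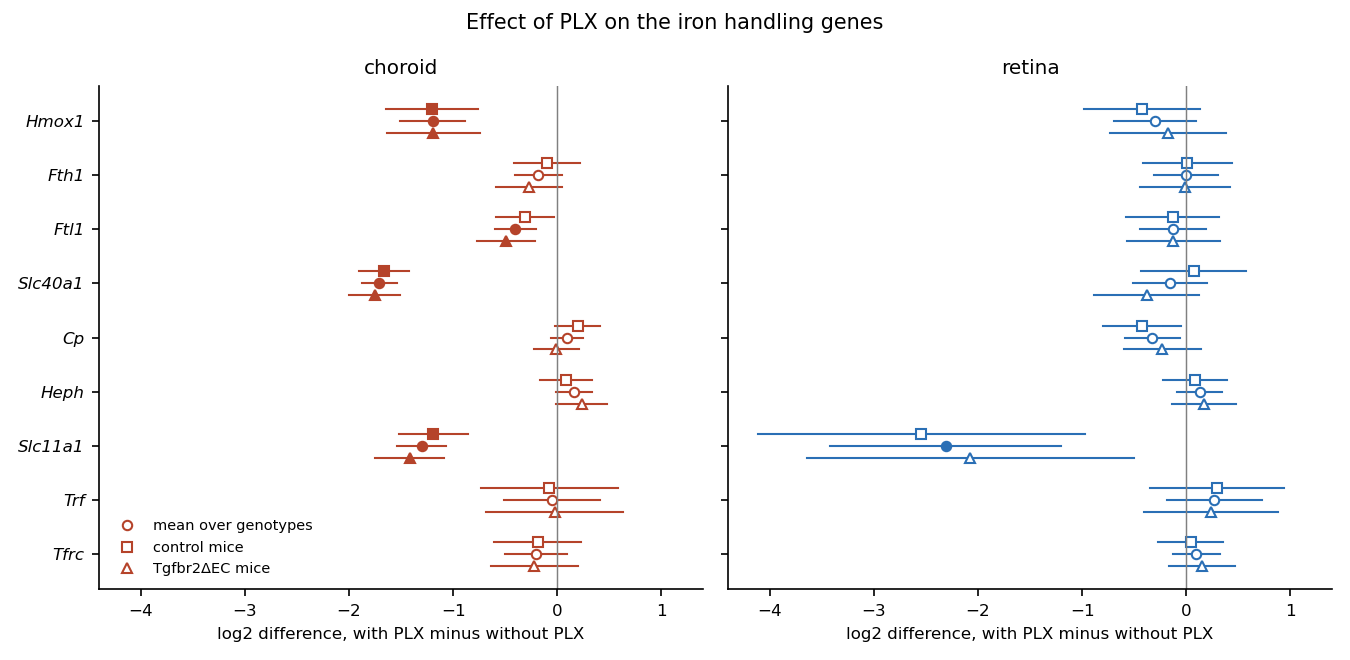
Log2 difference between mice with and without PLX for each member in choroid (left) and retina (right), with bars for the 95% confidence interval of the limma fit. Circles are the mean over genotypes, squares control mice and triangles Tgfbr2ΔEC mice. Filled symbols are called, which in choroid were *Hmox1*, *Slc40a1*, *Slc11a1* and *Ftl1* and in retina *Slc11a1* over both genotypes.

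Levels per kilobase of transcript set the members in order within a tissue, here over all 4 groups. In choroid *Fth1* (58482 ± 11155 normalized counts per kb, SD, n = 20), *Ftl1* (53978 ± 10585) and *Trf* (45487 ± 19810) came first and overlapped one another, all far above the rest. *Hmox1* (1335 ± 670 per kb) and *Cp* (1053 ± 124) followed and overlapped. *Slc11a1*, *Tfrc*, *Heph* and *Slc40a1* came last, at means of 410, 239.9, 168 and 164 per kb with overlapping ranges. The order of neighbours moved with PLX. *Hmox1* had group means of 1834 and 1896 per kb without PLX, above *Cp* (949.7 and 1088), but 796 and 814 with PLX, below *Cp* (1092 and 1081). *Slc40a1* had group means of 235 and 267 per kb without PLX, above *Heph* (166 and 150.4), but 74.8 and 79.2 with PLX, below it (178 and 176). In retina *Fth1* (10664 ± 2875 per kb) stood above *Ftl1* (5230 ± 1474) and *Trf* (2061 ± 744), the ranges of neighbours again overlapping. *Cp* (1186 ± 305) and *Tfrc* (844 ± 137) came next, and *Hmox1*, *Heph*, *Slc40a1* and *Slc11a1* had means of 60.6, 39.6, 38.03 and 8.39 per kb. *Tfrc* lay below *Hmox1* in every choroid, at 142 to 421 against 618 to 2968 per kb, and above it in every retina, at 597 to 1119 against 32.9 to 98.3.

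Of the 9 members, 7 were higher in choroid than in retina and *Tfrc* was lower, over the 4 groups and on the scale of normalized counts. This has to be read against the whole table, since 40.8% of 24317 genes were called higher and 41.1% lower in choroid (82.0% in all). The log2 difference was 6.15 for *Slc11a1*, 4.45 for *Trf* and 4.35 for *Hmox1*. It was 3.39 for *Ftl1*, 2.47 for *Fth1*, 2.08 for *Heph* and 1.91 for *Slc40a1*, with adjusted p-values of 2.01e-20 or less by limma. These values pool the diets, and for *Slc40a1* the median difference between the tissues of a mouse was 2.64 without and 1.21 with PLX. The size for *Slc11a1* rests on low retinal values, with 5 of the 10 retinae with PLX at or under the floor of 3 reads. It ran from 5.61 to 6.265 over 8 alternatives. For *Tfrc* the log2 difference was -1.83, from 2924 to 5476 normalized counts in the retinae to 696 to 2063 in the choroids. Beside 18.6% of genes that were higher and 15.1% that were lower in every choroid, the tissues did not overlap in any of these but *Slc40a1*, where the retina of mouse 15 lay among the choroids with PLX. *Cp* reached 3150.4 to 5420.0 in choroid and 3538 to 7671 in retina and was not called (-0.14, adjusted p = 0.0856, limma). Its median difference between the tissues of a mouse was -0.37 without and 0.20 with PLX. The test of PLX effects across tissues did not call it (0.42, adjusted p = 0.23, limma). With the diets pooled, *Cp* was called lower in choroid with equal library totals (-0.26, adjusted p = 0.00237, limma), with equal upper quartiles (-0.39) and without mouse 10.

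**Figure D3:**
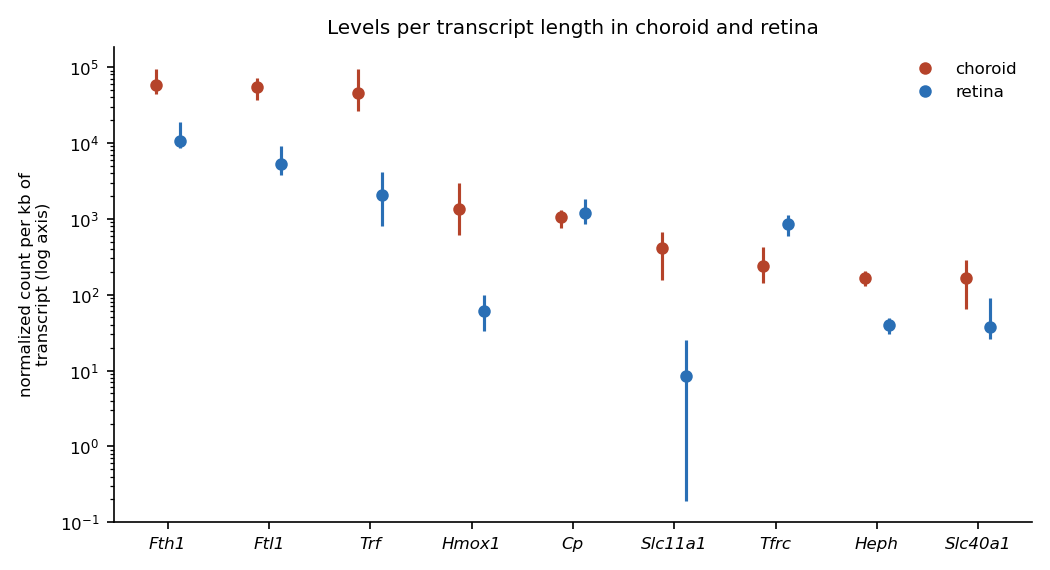
Normalized count per kilobase of transcript (log axis) of each member in choroid (red) and retina (blue). Points are means and lines span the lowest to the highest of 20 libraries per tissue. Both ferritin genes and *Trf* lie at 26129 per kb or more in every choroid, and *Tfrc* is the only member whose retinal range lies wholly above its choroidal one.

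Endothelial deletion of *Tgfbr2* moved no member past the threshold in either tissue or diet. In choroid without PLX, where the loss was studied with phagocytes present, the log2 differences (Tgfbr2ΔEC minus control) ran from -0.33 (*Trf*) to 0.20 (*Cp*). Of 23619 genes 0.00423% were called, a single gene, against 411 without mouse 15 and 303 with only the 2 groups fitted. Of these, 404 and 291 were higher in Tgfbr2ΔEC mice. Mouse 15 (control + PLX) is in neither of the groups compared. *Slc40a1* was at 739.5 to 921 normalized counts in control and 838 to 1004 in Tgfbr2ΔEC choroids, overlapping ranges with a difference of 0.19 (95% confidence interval -0.06 to 0.43, adjusted p = 0.717, limma). *Cp* was at 3150.4 to 4489.8 and 4080.1 to 4943, a difference of 0.20 (-0.01 to 0.42, adjusted p = 0.598, limma). In these same groups the neural retina score ranged from 7.41 to 10.6 in control and from 11.3 to 12.9 in Tgfbr2ΔEC choroids. With this score as a covariate the differences were 0.27 for *Slc40a1* and 0.20 for *Cp*, again not called (adjusted p = 0.999 for both, limma). With PLX the differences ran from -0.28 to 0.09 in choroid, where 0.00423% of genes were called. In retina they ran from -0.37 to 0.18 without and from -0.27 to 0.36 with PLX, and 0% of genes were called in either. At an unadjusted p under 0.05, limma counted 2184 genes in choroid and 758 in retina without PLX, and 889 and 629 with PLX. The interaction of genotype and PLX called none of the 9 members and 0% of genes in either tissue, with 1552 (choroid) and 567 (retina) genes at an unadjusted p under 0.05 by limma. For *Slc40a1* of choroid it was -0.09 (-0.43 to 0.25), for *Hmox1* 0.02 (-0.61 to 0.65) and for *Slc11a1* -0.23 (-0.69 to 0.24).

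The ferritin genes varied together across libraries in a way that the groups did not explain. In retina *Fth1* was at 14218, 13224, 13628 and 17564 normalized counts in mice 2, 3, 7 and 11, and at 7927 to 10704 in the other 16. *Ftl1* was at 7252, 6356, 7865 and 8918 in the same mice. The 4 mice belong to 3 groups, and no other retina reached their *Fth1* or *Ftl1* levels. The ribosomal protein score was highest in the same 4 retinae, at 11.3, 11.2, 11.4 and 11.7 against 10.6 to 10.9 elsewhere. After the group means were subtracted, Pearson's r with this score was 0.97 for both genes over 20 retinae, libraries that share their depth and scaling. The pattern was not particular to ferritin, since *Trf* of retina had r = 0.79 with this score. It had 0.79 and 0.82 with *Fth1* and *Ftl1*. The neural retina score had r = 0.76 with *Fth1* and 0.66 with *Ftl1* of retina. *Atp5mc3*, *Map1lc3a* and *Rpl19* were the genes most like *Fth1* (r = 0.99 each, among 17179 genes), and *Ctsd*, *Rps10* and *Csnk2b* those most like *Ftl1* (r = 0.98 each). With the score as a covariate, the PLX effect in retina stayed uncalled for *Fth1* (0.06) and *Ftl1* (-0.07).

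**Figure D4:**
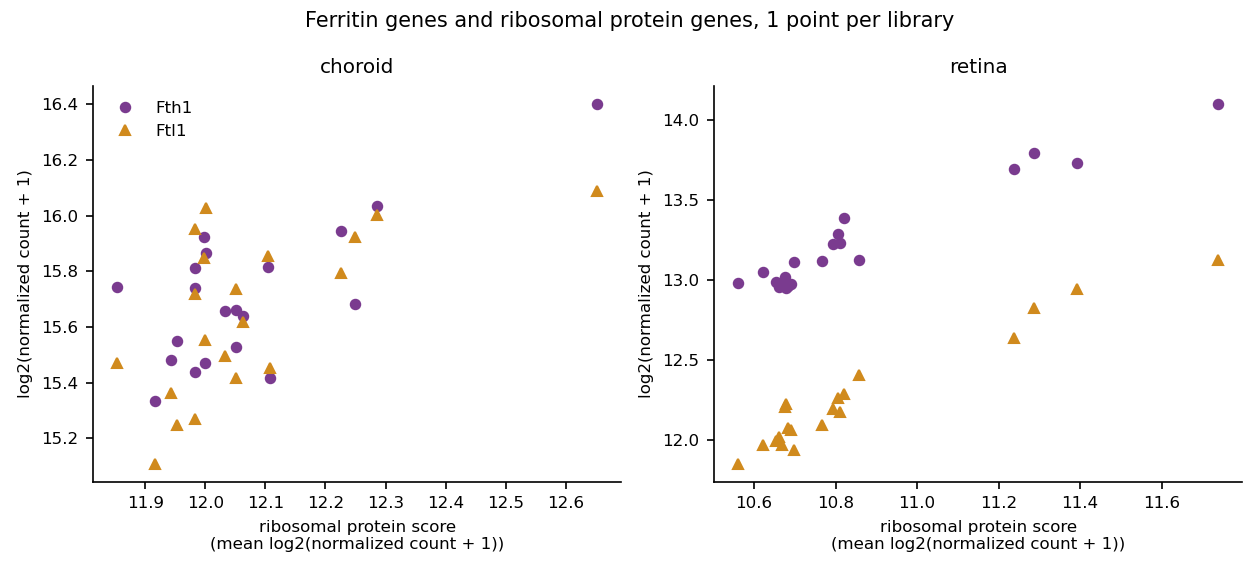
Log2(normalized count + 1) of *Fth1* (circles) and *Ftl1* (triangles) against the ribosomal protein score, the mean log2(normalized count + 1) of 80 genes, with 1 point per gene and library, in choroid (left) and retina (right). In retina 4 libraries with a score of 11.2 or more carry the highest values of both ferritin genes, and in choroid 1 library with a score of 12.7 does.

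Among the choroids the fallen members had the following neighbours. With group means subtracted, the genes most like *Slc11a1* were *Mpeg1*, *Vav1* and *Trim65* (r = 0.87, 0.84 and 0.82 over 20 choroids, among 17596 genes). Those most like *Slc40a1* were *Wdr33*, *Cgnl1* and *Pik3r4* (r = 0.84, 0.83 and 0.80), and those most like *Hmox1* were *Bid*, *Mob3c* and *Utp14a* (0.78, 0.76 and 0.76). Within the groups, r with the phagocyte score was 0.59 for *Ftl1*, 0.52 for *Slc11a1*, 0.41 for *Hmox1* and -0.45 for *Slc40a1*. Other scores gave values as large or larger, such as 0.77 for *Ftl1* with ribosomal protein genes, -0.63 and -0.57 for *Ftl1* and *Slc11a1* with Müller glia, and 0.55 for *Slc40a1* with melanocytes. Among themselves, *Ftl1*, *Slc11a1* and *Hmox1* had r values of 0.39 to 0.48, and *Slc40a1* had -0.14 to -0.0069 with these 3.

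Other genes of iron and haem metabolism, a list of 64 outside the 9, gave 5 higher and 8 lower with PLX among the 62 tested in choroid, with a median log2 difference of -0.02 (0.00 over all genes). Over all genes tested, 2.07% were called higher and 5.06% lower. Of the 21 genes of haem and haemoglobin handling, 2 were higher and 6 lower. *Cd163*, the macrophage receptor for haemoglobin bound to haptoglobin, went from 626 to 1403 (median 806) normalized counts without to 9.84 to 46.2 (median 14.6) with PLX and did not overlap (log2 difference -5.63, adjusted p = 7.25e-12, limma). *Blvrb* (-0.79) and *Blvra* (-0.54), the biliverdin reductases that act after haem oxygenase, also fell, as did *Hmox2* (-0.30), the constitutive haem oxygenase. *Flvcr1* (-0.26), a haem exporter, and *Alas1* (-0.21), which starts haem synthesis, fell by less. *Urod* (0.29), an enzyme of haem synthesis, and *Abcg2* (0.23), a porphyrin exporter, rose.

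Of 9 genes for sensing and storage, *Ncoa4* (-0.29), the receptor that delivers ferritin for breakdown, and *Nfe2l2* (-0.21), a regulator of *Hmox1* and the ferritin genes, were lower in choroid with PLX. Of 13 genes for uptake, *Steap4* (0.37), an endosomal metalloreductase, and *Slc39a8* (0.24), a metal transporter, were higher. *Bmp6* (0.47), the signal by which endothelium induces hepcidin in liver, was the called member of the systemic group, at 1086 to 1797 normalized counts without and 1552 to 2339.5 with PLX. None of 7 mitochondrial genes and none of the 4 ferroxidase and iron binding genes was called. Of the endothelial markers, 5 of 9 were higher with PLX in choroid (2.07% of all genes), with mean scores of 11.6 without and 11.8 with PLX. The mean scores of fibroblasts (15.6 and 15.9, 1 of 5 markers called higher), retinal pigment epithelium (13.1 and 13.3, none of 8 called) and melanocytes (14.4 and 14.5, none of 5 called) were also higher with PLX. The part of these cell types in the genes that rose was not tested.

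In retina 2 of the 62 genes tested were lower with PLX and none was higher, beside 1.08% of all genes called lower. *Steap4* fell from 21.3 to 175 (median 85.1) normalized counts to 7.27 to 41.9 (median 23.6), a log2 difference of -1.91 (adjusted p = 0.00216, limma). *Lcn2*, lipocalin 2, which binds iron-laden siderophores, fell from a median of 501 to 81.8 (log2 difference -2.004, adjusted p = 0.0187, limma), with overlapping ranges. The test across tissues called *Steap4*, whose PLX effect was 2.28 log2 units (SE 0.36) higher in choroid (adjusted p = 6.57e-05, limma), so the metalloreductase went in opposite directions in choroid and retina. Nothing is read from this test for *Cd163*, which in retina was at 0 in all 10 libraries with PLX and at 0 to 8.10 without, too low to show a fall like that in choroid.

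**Figure D5:**
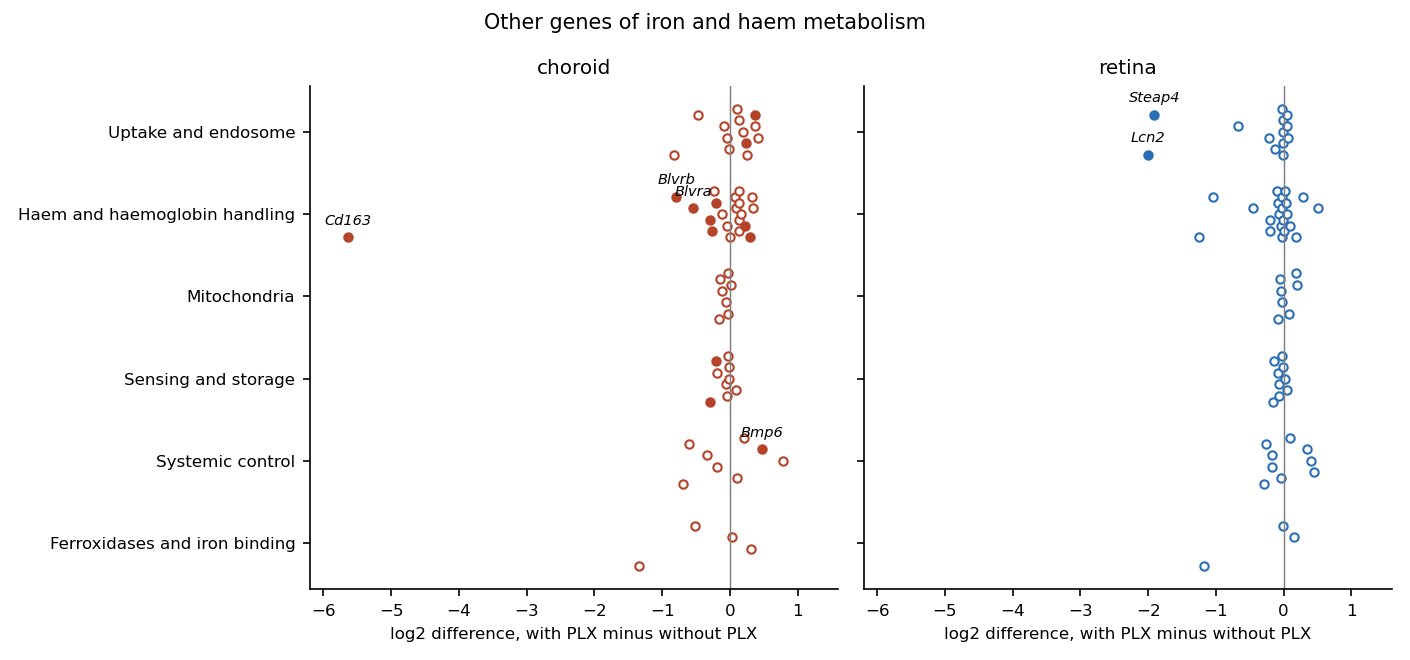
Log2 difference with PLX for the other genes of iron and haem metabolism, by group of function, in choroid (left) and retina (right). Each point is 1 gene, filled where called by limma, and names are given for called genes beyond 0.45 in size. *Cd163* at -5.63 lies apart in choroid, and *Steap4* and *Lcn2* are the called genes in retina.

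Across the tissues 41 of 63 of these genes were higher and 16 lower in choroid, beside 40.8% and 41.1% of all genes. The rule for naming, the 3 largest fitted differences in each direction, gave *Hjv*, *Hp* and *Cd163* upward and *Hamp*, *Hamp2* and *Fbxl5* downward. The places of all but *Fbxl5* depend on the pseudocount, since 1 tissue was near the floor of 3 reads, and no fold is given for them. *Hjv* spanned 92.7 to 1173 normalized counts over the choroids but 0.899 to 12.3 over the retinae, and *Hp* 78.5 to 1092 but 0 to 16.9. *Hamp*, the iron hormone hepcidin, was at 5.10 to 35.3 in retina and 0 to 10.3 in choroid, and its copy *Hamp2* did not pass 9.59 in any library. *Fbxl5*, an iron sensor, had a log2 difference of -1.65, from 5031 to 7528 in retina to 1716 to 2623 in choroid. *Scara5*, a ferritin receptor named after its values were seen because it was well above the floor in both tissues, spanned 2895 to 5810.5 in choroid and 41.9 to 79.99 in retina (log2 difference 6.29). Neither genotype comparison called any of the 62 genes tested, in choroid or in retina.

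Neutrophils are also known to make *Slc11a1*, and liver to make *Trf* and *Cp*. Of the 7 neutrophil markers, *Csf3r*, *Camp*, *S100a9*, *S100a8* and *Retnlg* had choroid means of 375, 78.1, 48.5, 37.2 and 28.9 normalized counts, and *Ngp* and *Ly6g* of 0.974 and 0.296. *Csf3r* alone was lower with PLX, in each tissue (choroid means of 508 without and 242 with PLX). The neutrophil score in choroid was 3.86 to 4.97 without and 3.97 to 4.88 with PLX. In retina it was 0.776 to 2.21 (mean 1.53) without and 0 to 1.53 (mean 0.694) with PLX, and its part in the difference of *Slc11a1* was not tested. Of the 6 liver markers, *Apoa1* and *Alb* had the highest choroid means, 3.48 (0 to 14.7) and 2.77 (0 to 18.9), and *Apoa1* and *Apoa2* the highest retinal means, 3.43 (0 to 9.22) and 1.46 (0 to 14.0). *Ahsg*, *Serpina1a* and *Fgb* had choroid means of 0.579 or less and were at 0 in every retina. Erythroid markers had a median log2 difference of 1.22 in choroid with PLX, none called, with *Hba-a1* at means of 518 without and 945 with PLX.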

How the data were processed

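Poly(A) mRNA of choroid and retina was sequenced in 40 libraries from 20 mice. The deposited values are a signal: gene-level counts that the authors estimated with salmon 1.10.1 and divided by DESeq2 1.36.0 size factors, with reads checked in FastQC 0.11.5 per the labels, on GRCm39 with GENCODE annotation. Both tissues stand in 1 table. Whole reads could not be recovered, so no count test was run, and the worth of 1 read gives the floor of 3 reads only approximately.

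Log2(value + 1), a pseudocount of 1, was fitted with limma 3.58.1 (trend) in R 4.3.3 where a gene's mean value reached 1, with all 4 groups of a tissue together. The comparisons of tissues used all 40 libraries. Genes with a Benjamini-Hochberg adjusted p of 0.05 or less over all genes tested were called. Fold changes are on this log2 scale and understate changes of low genes. Confidence intervals are 95% and those of the limma fit. Exact two-sided permutation tests exchanged diets within genotypes (63504 relabellings), and with 5 against 5 mice the smallest p they allow is 0.0079. Levels per kilobase use the length of the canonical transcript. The limma step was tested on simulated data with known changes. Sequences and coordinates are from the GRCm39 reference with GENCODE annotation, to which 53700 of 54307 gene identifiers matched. Python 3.11.15, numpy 2.4.6, pandas 2.3.3 and matplotlib 3.10.9 were used for the rest.

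All 9 members are named in each comparison of diets. Of the other iron and haem genes, those called for PLX in a tissue are named, as are the 3 with the largest difference between tissues in each direction. The members and lists were chosen with earlier results of these data known. Copies of the ferritin genes (14 identifiers) had summed means of 94.8 normalized counts in choroid and 28.5 in retina, so reads of *Fth1* and *Ftl1* may be split with them to that extent. Both tissues of a mouse share its number, which pairs them. The deviations of the 2 tissues from their group means correlated at -0.16 to 0.29 over 20 pairs (median 0.13). The sex of the mice and the cell proportions used as covariates in the study are not in the labels and were not used, and marker scores stood in for them as alternatives. The sex score, *Xist* against Y-linked genes, had means of 1.21 in control – PLX and 6.14 in Tgfbr2ΔEC – PLX choroids. With PLX the means were 2.21 and 10.2, so the sexes were not evenly spread over the genotypes. Alternatives were another pseudocount, filter, scaling, variance estimate or covariate, only the 2 groups compared, a replicate block by mouse, and each mouse left out in turn.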

Additional observations from a re-analysis of the deposited data

Results flagged for a closer look

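Of 72 groups of 5 libraries, 13 held a library of a member that stood apart from the other 4 by more than Dixon's critical value for 5 samples. For independent groups of normally distributed values, chance would give about 1 in 20 groups, or 3.6. These groups share libraries and hold untransformed counts, and the ferritin genes vary together, so no excess is read from the count. Mouse 5 (control – PLX) was high in choroid for 3 genes, *Hmox1* at 4147 normalized counts (others 2334 to 2724), *Slc11a1* at 1693 (1347 to 1437) and *Tfrc* at 1610.5 (1162 to 1277). Both ferritin genes stood apart in the same retinae. In mouse 11 (control + PLX) *Fth1* was at 17564 (8081 to 9614) and *Ftl1* at 8918 (3694 to 4674), and in mouse 7 (Tgfbr2ΔEC – PLX) they were at 13628 (7927 to 8870) and 7865 (3923 to 4780). *Slc11a1* was low in the choroid of mouse 10 (Tgfbr2ΔEC – PLX), at 1061 (1662 to 1746), and high in the retina of mouse 14 (control + PLX), at 33.5 (0.498 to 7.19). *Slc40a1* was at 316 (89.4 to 126) in the retina of mouse 15 (control + PLX). *Trf* was at 240375 (83025 to 111223) in the choroid of mouse 13 (control + PLX) and at 7253 (5038 to 5656) in the retina of mouse 17 (Tgfbr2ΔEC + PLX). *Cp* was at 4907 (4275 to 4455) in the choroid of mouse 18 (Tgfbr2ΔEC + PLX).

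The effect of PLX differed between tissues for *Slc40a1*, by -1.55 log2 units (choroid minus retina), as tested with the interaction of diet and tissue in limma.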

How the results depend on the processing

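The mean PLX calls of *Slc40a1*, *Slc11a1*, *Hmox1* and *Ftl1* in choroid held in all 11 alternatives and in all 20 fits without 1 mouse. The number of members called in retina went from 1 to 0 with no filter on low values (*Slc11a1* adjusted p = 0.058, limma) and with the retinal pigment epithelium score as a covariate, chosen after seeing the data (-2.45 against -2.31, adjusted p = 0.0523, limma). Without 1 mouse it was 0 to 1, and in control retinae 0 to 1 (1 without mouse 14). *Ftl1* in Tgfbr2ΔEC choroids lost its call without any of mice 6 to 10 and 16 to 20, with no filter, with equal upper quartiles, and with the sex, neural retina or retinal pigment epithelium score (-0.60 to -0.42, adjusted p 0.0506 to 0.0985, limma, against -0.49). Members that differed in PLX effect between tissues numbered 2 with a pseudocount of 5, a mean of at least 10, or the replicate block, and 1 to 2 without 1 mouse. The replicate block changed no other call of a member.

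Of all genes, a mean of at least 10 left 154 called in retina and 104 in control retinae. With only the 2 groups compared, 572 were called in control choroids and 303 for genotype in choroid without PLX. In Tgfbr2ΔEC choroids 536 were called with the neural retina score and 605 with the retinal pigment epithelium score. For genotype in choroid, a mean of at least 10 left 0 without PLX, and 0 with PLX, as did a pseudocount of 5, the sex, neural retina and retinal pigment epithelium scores and the 2 groups alone. Without 1 mouse, genotype calls ran from 1 to 411 in choroid without PLX (411 without mouse 15), 0 to 1 with PLX, and 0 to 1 in retina with PLX. Calls of the difference in PLX effect between tissues ran from 278 to 620 (without mouse 15).

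Among differences that were not called, the sign turned for *Fth1* in retina with equal upper quartiles (0.00537), the sex score (0.013) or the ribosomal protein score (0.058), and without 1 mouse (-0.098 to 0.071). It also turned for *Trf* in choroid with equal upper quartiles (0.0078) and without 1 mouse (-0.18 to 0.072). For *Heph* the difference in PLX effect between tissues turned sign without 1 mouse (-0.032 to 0.11). The cause was not tested. In retina, *Slc11a1* near the floor of 3 reads is the member that depth limits most.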

Other observations

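The ratio of the heavy to the light ferritin chain message, examined after the values were seen, is given beside the called difference of *Ftl1* in choroid (-0.40, exact permutation p = 0.0011), which had the larger size and the smaller p. In choroid the ratio of *Fth1* to *Ftl1* normalized counts was 0.846 to 1.11 (median 0.994) without PLX and 0.946 to 1.242 (median 1.15) with PLX, overlapping ranges with a log2 difference of 0.22 (exact permutation p = 0.00368, two-sided). In retina it was 1.65 to 2.26 (median 1.88) without and 1.88 to 2.19 (median 2.04) with PLX, a log2 difference of 0.13 (exact permutation p = 0.0253, two-sided). These are 2 tests of 1 ratio, unadjusted, and whether the tissues differ in it was not tested.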
